A study of Mus musculus with 2 samples.

Results

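The 36 genes described here carry glucose and lactate across the plasma membrane, run glycolysis from hexokinase to lactate dehydrogenase, and break down or build glycogen. They were chosen by symbol from these pathways, by a rule that uses no value, though with earlier results of these data known: 5 transporters, 21 glycolytic enzymes and their regulators, 6 genes of glycogen breakdown and 4 of glycogen synthesis, out of 16190 genes in the count table. Total RNA was sequenced from mouse cells labelled as satellite cells, the resident stem cells of skeletal muscle, taken from the tibialis anterior muscle of C57BL/6 animals. 1 library came from Cipc flox/flox mice, the control with floxed Cipc alleles, and 1 from Cipc scko mice, in which the series title places the deletion in satellite cells. The sample titles call them Cipc+/+ and Cipc-/-, and the names scko and flox/flox are used below. The sources used here do not give the Cre driver, the age and sex of the mice, the number pooled or any culture step, and no label of either sample names the mdx mutation that appears in the series title. With 1 library a group, every difference below compares those 2 libraries, and every interval covers counting error only.

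Glycolysis splits glucose into pyruvate in the cytosol and yields ATP without oxygen. Most of its steps have several isozymes, encoded by separate genes, of which muscle fibres use particular forms: GLUT4 for insulin-dependent glucose uptake, PFK-M, PGAM-M and beta-enolase in the pathway, MCT4 for lactate export, and the muscle forms of glycogen phosphorylase and glycogen synthase. Proliferating cells generally rely on GLUT1, MCT1 and the widely expressed isozymes.

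The libraries held 16830168 counts (scko) and 16145870 counts (flox/flox), and 12874 genes passed a filter of 1 CPM (counts scaled to library size) in a library and 20 counts in all. Cipc itself had 594 counts in scko and 1907 in flox/flox, a log2 ratio of -1.61 (95% counting interval -1.74 to -1.47). The libraries also differed in cell state and in sex-linked genes. All 7 markers of differentiated myocytes were higher in scko, and their summed level was 18103 CPM in scko and 37.6 CPM in flox/flox. Of 8 satellite cell and myoblast markers 3 (Pax7, Myod1 and Des) were higher and 0 lower. The satellite cell marker Pax7 had 998 and 43 counts. The 8 markers summed to 7961 and 3922 CPM, of which Des held 4451 and 1977 CPM. Smooth muscle and pericyte markers summed to 12439 and 513 CPM, nearly all of it Acta2, which developing muscle also expresses, while Myh11, Rgs5 and Kcnj8 had no row. Macrophage markers summed to 5.61 and 46.7 CPM, in flox/flox nearly all of it Cd68 (25.1 CPM) and Cd14 (21.0 CPM). Csf1r was higher in scko (37 and 9 counts), and Ptprc and Adgre1 had no row. Endothelial, erythroid, adipocyte and Schwann cell markers summed to at most 12.4 CPM in either library. Fibro-adipogenic markers summed to 406 and 477 CPM, nearly all of it Ly6a, which was not called, whereas Dcn had 1 and 142 counts and Pdgfra 11 and 147, both lower in scko. Xist had 4 and 3898 counts and the Y-linked Ddx3y 511 and 0, so sex-linked expression runs with genotype and their effects cannot be told apart. The part of cell state in the values below was not tested, and in bulk RNA fewer cells of a type and less RNA per cell cannot be told apart.

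Of the 35 genes past the filter, 11 were at least 2-fold higher in scko and 7 at least 2-fold lower with an interval that excluded equality, and 17 were neither. The shares were 31.4% higher and 20% lower, beside 21.2% and 15.9% of all genes by the same rule, or 51.4% called in either direction beside 37.2% of all genes. Their median log2 ratio was 0.24, beside 0.01 over all genes. Together the 36 genes took 1.71% of the counts in scko and 1.90% in flox/flox. Their summed level was thus close in the libraries, 17927 and 18110.1 CPM, while single genes ranged from a log2 ratio of -1.37 to 8.83. The genes higher in scko were Slc2a3, Slc2a4, Slc16a3, Pfkm, Pfkfb3, Gapdh, Pgam2, Ldhb, Pygm, Pygl and Gys1. Those lower were Slc2a1, Slc16a1, Pfkp, Pfkfb1, Pfkfb4, Pgam1 and Gbe1.

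**Figure D1:**
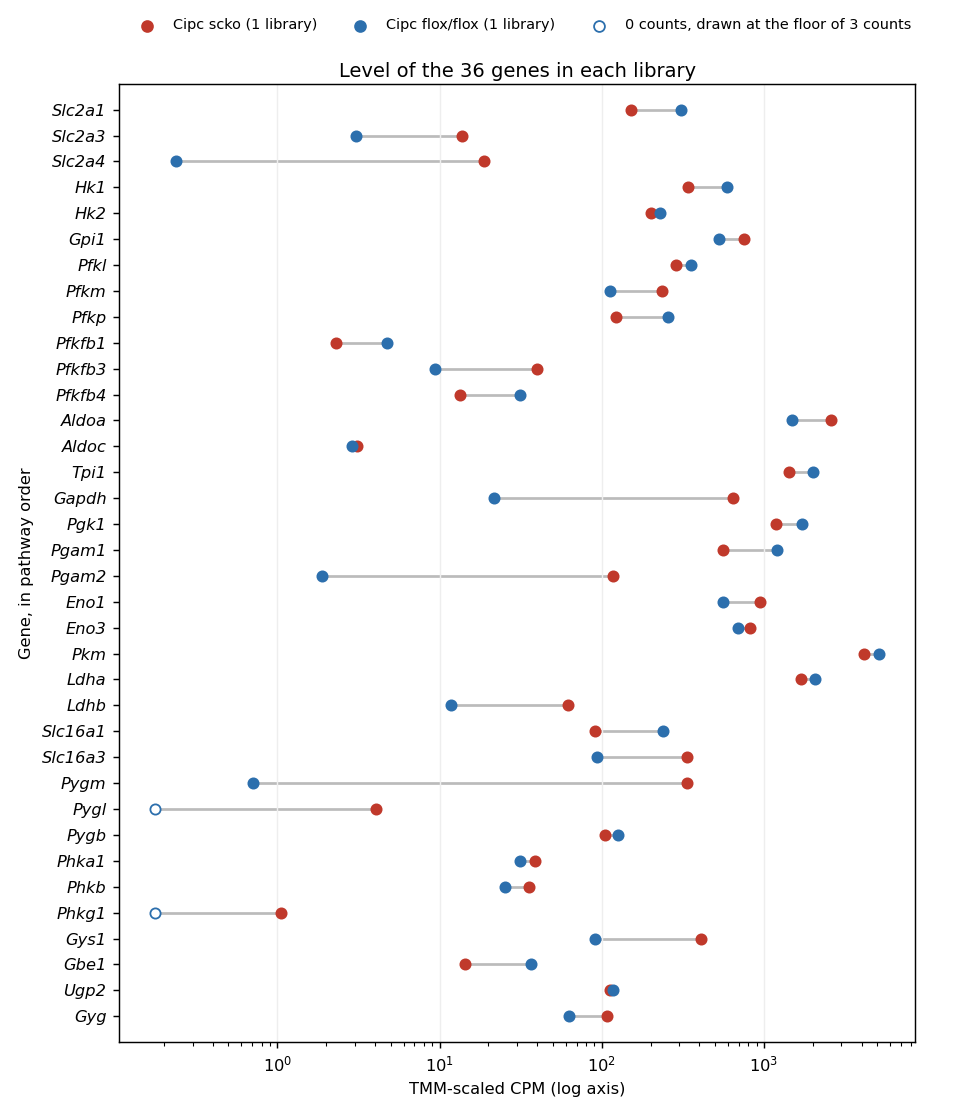
Level of each of the 36 genes in CPM, scaled between libraries, on a log axis, with the scko library in red and the flox/flox library in blue (1 library each, no error bars). Slc2a4, Gapdh, Pgam2 and Pygm show the longest gaps among genes counted in both libraries, and Pygl and Phkg1 had 0 counts in flox/flox and are drawn there at the floor of 3 counts.

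The sequences shown first are the promoters of the 2 highest and 2 lowest called genes, by the interval limit closest to no difference, among those with a promoter window in RefSeq. They are the 250 bases before the start site (GRCm38.p6, coding strand of the gene), Pygm at chr19:6384158-6384407 on the plus strand and Pgam2 at chr11:5803797-5804046 on the minus strand for the highest, and Slc16a1 at chr3:104638414-104638663 and Gbe1 at chr16:70313699-70313948, both on the plus strand, for the lowest. Capitals mark CAGCTG and the related CACCTG with its reverse complement CAGGTG, forms of the E-box that myogenic factors such as MYOD bind, and CACGTG, the E-box form known for CLOCK and BMAL1 and for MYC.
Pygm promoter: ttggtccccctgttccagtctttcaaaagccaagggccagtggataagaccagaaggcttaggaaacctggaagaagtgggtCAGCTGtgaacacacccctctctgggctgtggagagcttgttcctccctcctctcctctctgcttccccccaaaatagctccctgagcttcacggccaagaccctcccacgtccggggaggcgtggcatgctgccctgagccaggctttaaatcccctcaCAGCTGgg
Pgam2 promoter: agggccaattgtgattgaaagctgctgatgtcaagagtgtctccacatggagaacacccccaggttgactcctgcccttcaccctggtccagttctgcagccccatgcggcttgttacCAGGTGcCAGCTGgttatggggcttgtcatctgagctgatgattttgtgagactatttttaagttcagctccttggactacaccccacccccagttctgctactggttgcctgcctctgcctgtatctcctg
Slc16a1 promoter: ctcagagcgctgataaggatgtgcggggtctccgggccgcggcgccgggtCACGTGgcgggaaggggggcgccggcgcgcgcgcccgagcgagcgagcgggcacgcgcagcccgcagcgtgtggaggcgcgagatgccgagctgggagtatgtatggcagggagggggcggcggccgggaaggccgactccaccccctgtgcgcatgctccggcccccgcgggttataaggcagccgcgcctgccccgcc
Gbe1 promoter: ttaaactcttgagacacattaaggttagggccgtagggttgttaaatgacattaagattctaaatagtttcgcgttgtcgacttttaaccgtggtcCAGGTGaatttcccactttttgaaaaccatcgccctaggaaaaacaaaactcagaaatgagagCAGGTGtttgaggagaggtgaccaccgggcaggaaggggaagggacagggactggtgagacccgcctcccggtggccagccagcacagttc
The first motif stood in Pygm, Pgam2 and also in Gbe1, which was lower, and CACGTG stood in Slc16a1. Windows were found for 34 of the 36 genes (50 windows, not Slc2a3 or Slc2a4). On either strand, CAGCTG or the related CACCTG was present in 28% of those windows and in 27.7% of all 32851 windows, and CACGTG in 8% (Ldha, Pfkfb3, Pfkm and Slc16a1) and 6.02%. The hypoxia response core, searched as ACGTG and also as GCGTG and overlapping CACGTG, was present in 72.0% and 38.6%. The median GC content of the windows was 60.0% for these genes and 52.4% for all windows, and its part in that motif count was not tested. A match is a description of these letters and shows no binding.

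All 5 transporters were called, 3 (60%) higher and 2 (40%) lower, beside 21.2% and 15.9% of all genes. The median of their log2 ratios was 1.85. Slc2a1 encodes GLUT1, the basal glucose transporter. It had 2413 counts in scko and 5180 in flox/flox, or 150.3 and 306 CPM, and fell by 1.03 on the log2 scale (interval -1.10 to -0.96). Slc2a4 encodes GLUT4, which insulin and contraction bring to the surface of muscle fibres (ENSMUSG00000018566, GRCm38 chromosome 11, 69942539 to 69948188). It had 304 counts in scko and 4 in flox/flox, or 18.9 and 0.236 CPM, an 80.1-fold higher level (log2 6.15, 4.95 to 8.21). Slc2a3, the high-affinity GLUT3 known from neurons, had 221 and 52 counts (13.8 and 3.07 CPM), a log2 ratio of 2.15 (1.72 to 2.63). GLUT1 remained the main transporter in both libraries. By FPKM, counts per gene length as deposited, it made up 87.1% of the summed level of the 3 genes in scko and 99.5% in flox/flox. GLUT4 made up 9.08% and 0.0635%. The summed level of the 3 was lower in scko, 33.0 beside 58.9 on the scaled FPKM scale (deposited FPKM brought to the CPM scaling), a log2 ratio of -0.83.

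The lactate carriers exchanged places. Slc16a1 encodes MCT1, which carries lactate and pyruvate with a proton in either direction. It had 1466 counts in scko and 4007 in flox/flox (91.3 and 237 CPM), the lowest ratio of the 36 genes at -1.37 (-1.46 to -1.29). Slc16a3 encodes MCT4, the exporter of lactate from glycolytic muscle, and had 5407 and 1576 counts (337 and 93.1 CPM), a log2 ratio of 1.85 (1.77 to 1.94). MCT4 made up 65.1% of the pair by FPKM in scko (95% counting interval 63.8 to 66.4) and 16.6% in flox/flox (15.8 to 17.4). The summed level of the pair was 59.1 and 64.1 scaled FPKM.

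**Figure D2:**
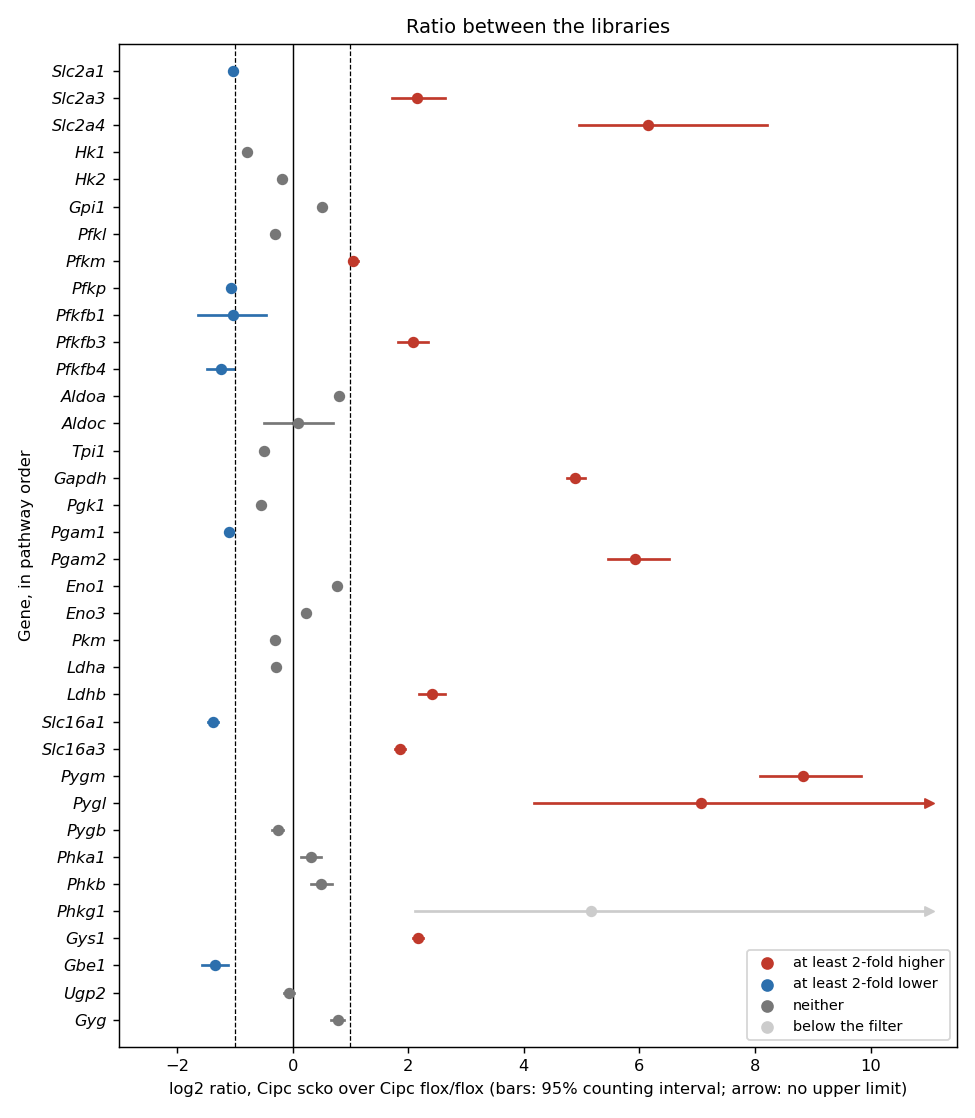
Log2 ratio of scko over flox/flox for each gene in pathway order, with the 95% counting interval as a bar and dashed lines at a 2-fold difference. 11 genes past the upper line are called higher, 7 past the lower line are called lower, and the arrows mark the 2 genes at 0 counts in flox/flox, of which Phkg1 was below the filter.

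No gene of the first steps, before phosphofructokinase, was called. Hexokinase traps glucose as glucose 6-phosphate. Hk1, the form found in most tissues, had 5477 counts in scko and 10017 in flox/flox (log2 -0.79), and Hk2, the insulin-responsive form of muscle, had 3217 and 3867 (log2 -0.19). Neither passed the 2-fold limit. Gpi1, which converts glucose 6-phosphate to fructose 6-phosphate, had 12053 and 8933 counts (log2 0.51) and was not called either. Its chromosome, 7, had a median log2 ratio 0.41 above that of the autosomal genes compared, and relative to that the value was 0.10. Relative to chromosome 10, the value of Hk1 was -0.43.

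Phosphofructokinase, the committed step, had another leading isozyme in each library. Pfkm, the muscle form, had 3773 counts in scko and 1921 in flox/flox (235 and 113 CPM), a log2 ratio of 1.05 (0.97 to 1.13). Pfkp, the platelet form, had 1959 and 4318 counts (122 and 255 CPM) and fell by 1.06. Pfkl, the liver form, had 4605 and 5994 counts (log2 -0.30) and was not called. Pfkm was the leading isozyme in scko, at 53.5% of the family by FPKM, whereas Pfkl led in flox/flox at 54.8%, where Pfkm held 29.0%. The family sums, 149 and 132 scaled FPKM, differed by a log2 ratio of 0.17 (0.12 to 0.21). Pfkm lies just past the 2-fold limit and was not called under scaling by total counts. It sits on chromosome 15, whose genes had a median 0.64 below that of the autosomal genes compared (deviation -0.64). Relative to its chromosome its log2 ratio was 1.69. Centring in the same way brought Pfkl on chromosome 10 to 0.06.

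The PFKFB enzymes make and remove fructose 2,6-bisphosphate, the main activator of phosphofructokinase. Pfkfb3, the form with high kinase activity, had 638 counts in scko and 159 in flox/flox (39.7 and 9.39 CPM), a log2 ratio of 2.08 (1.83 to 2.34). Pfkfb4 had 214 and 534 counts (log2 -1.24, -1.48 to -1.01), and Pfkfb1, the liver and muscle form on the X chromosome, had 37 and 80 (log2 -1.03, -1.64 to -0.46). The leading member was Pfkfb3 in scko, with 51.3% of the family, and Pfkfb4 in flox/flox, with 72.0%. Pfkfb1 was no longer called when values were centred on their chromosome (log2 -0.88).

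In the middle of the pathway Gapdh alone was called. Aldoa, the muscle aldolase, had 41752 counts in scko and 25129 in flox/flox (log2 0.81, or 0.40 relative to chromosome 7), and the brain form Aldoc had 50 and 49. Tpi1, which interconverts the triose phosphates, had 23000 and 33949 counts (log2 -0.49), and Pgk1, the first ATP-yielding enzyme, 18913 and 29079 (log2 -0.54). None of these was called. Gapdh encodes the dehydrogenase between Tpi1 and Pgk1 (ENSMUSG00000057666, chromosome 6, 125161715 to 125166467), a common reference gene. It had 10275 counts in scko and 364 in flox/flox, or 640.0 and 21.5 CPM, a log2 ratio of 4.89 (4.74 to 5.05). It stood at 74.2 scaled FPKM in scko and 2.49 in flox/flox, beside 386 and 563 for Pgk1 and 363 and 508 for Tpi1. The length behind the FPKM of Gapdh was longer than its 4133 exon bases and than those of Pgk1 and Tpi1. This lowers its FPKM beside theirs. In CPM, Pgk1 had 1178 and 1718 and Tpi1 1433 and 2006. In flox/flox the level of Gapdh was far under those of these neighbours on both scales.

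Gapdh also had the lowest share of unique sequence among the 36 genes. Among annotated mouse transcripts it has 46 near-identical copies (at least 95% identity over at least 80% of the shorter transcript), of which 2 had a row in the count table and 44 did not. Only 14.2% of the 100-base windows of its transcript were found in no other gene, and the rest were shared with 86 other genes. The following stretches show how alike they are, bases 612 to 691 of the coding sequence of Gapdh transcript Gapdh-202, counted from its first start codon, and bases 534 to 613 of the pseudogene transcript Gm4691 (both from GENCODE vM21), with capitals where they differ.
Gapdh: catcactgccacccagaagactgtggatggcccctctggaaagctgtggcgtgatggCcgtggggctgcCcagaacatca
Gm4691: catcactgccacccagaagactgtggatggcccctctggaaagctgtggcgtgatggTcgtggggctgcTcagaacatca
The 80 bases differ at 2 positions, the most of any 80-base stretch that met set rules on the place and spacing of differences. Over 987 bases of Gapdh the 2 transcripts shared 99.0% identity. Gm4691 had 26 counts in scko and 22 in flox/flox, and Gapdh-ps15 had 3 and 0, so adding both copies gave a log2 ratio of 4.81. How reads that match several copies were treated was not stated in those sources. Reads of the 44 copies without a row were not analysed, and their part in the Gapdh ratio was not tested. Iffo1 on the opposite strand shares 68 exon bases with Gapdh (1.65% of its exons) and had 4365 and 425 counts (log2 3.44). Without a stated strand setting reads in the shared bases cannot be told apart. Pgk1, set beside Gapdh above, lies on the X chromosome, and 33% of its 100-base windows were unique. Adding its copy Pgk1-rs7 left its log2 ratio at -0.54, and 3 further copies had no row.

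The later steps of the pathway held a large difference in a muscle isozyme. Pgam2 encodes PGAM-M, the muscle phosphoglycerate mutase (ENSMUSG00000020475, chromosome 11, 5801640 to 5803733). It had 1881 counts in scko and 32 in flox/flox, or 117 and 1.89 CPM, a 62.0-fold higher level (log2 5.93, 5.45 to 6.51). Pgam1, the widely expressed form, had 8978 and 20302 counts (559 and 1199 CPM) and fell by 1.10 (interval -1.14 to -1.06). Adding its identical copy Pgam1-ps2 (947 and 2281 counts) gave -1.11. Pgam2 made up 31.4% of the pair by FPKM in scko and 0.342% in flox/flox. Pgam1 led in both, and the summed level was lower in scko, 445 beside 657 scaled FPKM.

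Enolase turns 2-phosphoglycerate into phosphoenolpyruvate. Eno3, the muscle beta-enolase, had 13132 counts in scko and 11738 in flox/flox (818 and 693 CPM, log2 0.24). It was the larger of the Eno1 and Eno3 pair in both libraries, 68.3% and 75.7% by FPKM. With the copy Eno1b included, its share was 47.1% in scko and 24.1% in flox/flox, where Eno1b led with 68.1%. By the deposited lengths these shares weigh a read of Eno1b more than a read of Eno1. Eno3 stood at 221 scaled FPKM in flox/flox, where Pgam2 stood at 2.25, Pygm at 0.155 and Slc2a4 at 0.0374. The value of Eno1 depends on its copy Eno1b, with which it shares 99.5% identity. Eno1 alone had 15221 and 9451 counts (log2 0.76), Eno1b had 4851 and 18542, and their sum of 20072 and 27993 had a log2 ratio of -0.40 (-0.43 to -0.38). The sign of the alpha-enolase difference therefore changed with the treatment of the copy, and only 41.0% of the 100-base windows of Eno1 were unique to it.

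**Figure D3:**
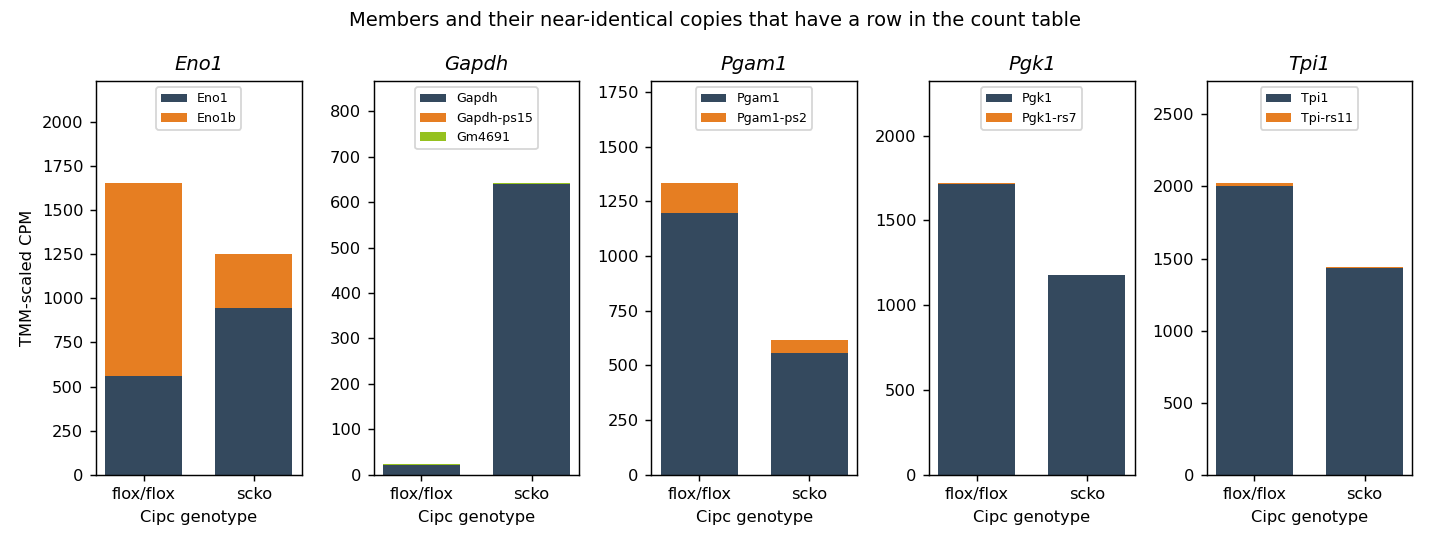
CPM of 5 genes stacked with their near-identical copies that have a row in the count table, for the flox/flox and scko libraries (1 each). For Eno1 the dark part is larger in scko while the stack with Eno1b is larger in flox/flox, and for Gapdh, Pgam1, Pgk1 and Tpi1 the copies leave the direction as it was.

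Pkm, pyruvate kinase, had the highest FPKM of the 36 genes in both libraries, 1581 and 1964 scaled FPKM. It had 65958 counts in scko and 86392 in flox/flox (4108 and 5104 CPM, log2 -0.31). It ranked 20 and 14 among all 16190 genes by FPKM. Gene counts do not separate its spliced forms PKM1 and PKM2. Ldha, the lactate dehydrogenase subunit of fast muscle, had 27214 and 34916 counts (log2 -0.28, or -0.69 relative to chromosome 7). Neither Pkm nor Ldha was called. Ldhb, the heart subunit, had 999 and 198 counts (62.2 and 11.7 CPM), a log2 ratio of 2.41 (2.19 to 2.64). It rose from 1.31% to 7.88% of the pair by FPKM.

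The highest ratio of the 36 genes was found in glycogen breakdown. Pygm encodes the muscle glycogen phosphorylase, which releases glucose 1-phosphate from glycogen and is missing in McArdle disease (ENSMUSG00000032648, chromosome 19, 6384399 to 6398459). It had 5389 counts in scko and 12 in flox/flox, or 336 and 0.709 CPM, a 473-fold higher level (log2 8.83, 8.08 to 9.84). A ratio as high was found in 1.09% of all genes past the filter. The liver form Pygl had 65 counts and 0, at least 22.8-fold higher against a floor of 3 counts. The brain form Pygb had 1693 and 2126 counts (log2 -0.25) and was not called. Pygb made up 99.3% of the phosphorylase level by FPKM in flox/flox and 20.2% in scko, where Pygm made up 78.9%. Here the family sum moved too, from 22.6 to 93.2 scaled FPKM, a 4.13-fold higher level and the largest difference of the 10 family sums.

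Phosphorylase kinase, which activates phosphorylase in response to calcium and adrenaline, did not show such a difference in the subunits that could be compared. Phka1, the muscle alpha subunit on the X chromosome, had 624 counts in scko and 528 in flox/flox (log2 0.32), and the beta subunit Phkb had 568 and 426 (log2 0.49). Phkg1, the muscle catalytic subunit, had 17 counts and 0, at least 5.97-fold higher, and did not pass the filter. Only 76.7% of its 100-base windows were unique, the opposite-strand gene Sumf2 sharing others.

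Among the 4 genes of glycogen synthesis 1 (25%) was higher, 1 (25%) lower and 2 neither, beside 21.2% and 15.9% of all genes called higher and lower. Gys1, the muscle glycogen synthase, had 6523 counts in scko and 1527 in flox/flox (406 and 90.2 CPM), a log2 ratio of 2.17 (2.09 to 2.25), or 1.76 relative to chromosome 7. Gbe1, the branching enzyme, had 231 and 616 counts (14.4 and 36.4 CPM) and fell by 1.34 (interval -1.56 to -1.12). Gyg, the glycogenin primer protein, had 1724 and 1058 counts (log2 0.78), and Ugp2, which makes UDP-glucose, 1821 and 1998 (log2 -0.06, -0.15 to 0.03). The synthase and the branching enzyme thus lay on opposite sides.

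Set side by side, the 10 families show where the make-up differed and where the sum did. The isozyme with the highest FPKM was another in 5 of 10 families: hexokinase, phosphofructokinase, the lactate transporters, glycogen phosphorylase and PFKFB. With Eno1b counted as a gene of its own, the leading enolase row was Eno3 in scko (47.1%) and Eno1b in flox/flox (68.1%). That change rests on splitting near-identical copies and on deposited lengths that differ between them. Eno1 and Eno1b held 21.8% and 31.1% in scko, and together they exceeded Eno3 in both libraries. With other gene lengths the leading isozyme differed in 4 of these 10 families, since Hk1 then led in both libraries. With the deposited lengths Hk2 held 51.5% in scko and 41.1% in flox/flox. The family sums differed by at least 2-fold for glycogen phosphorylase only. The others lay between a log2 ratio of -0.83 for the glucose transporters and 0.81 for aldolase. The enolase sum changed from 0.38 to -0.73 when Eno1b was added, a value that depends on the deposited lengths. In scko Eno1b had 302 CPM and 172 scaled FPKM, and Eno1 948 and 121, so a read weighed more in Eno1b. Other lengths were not tried for the sum with Eno1b.

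**Figure D4:**
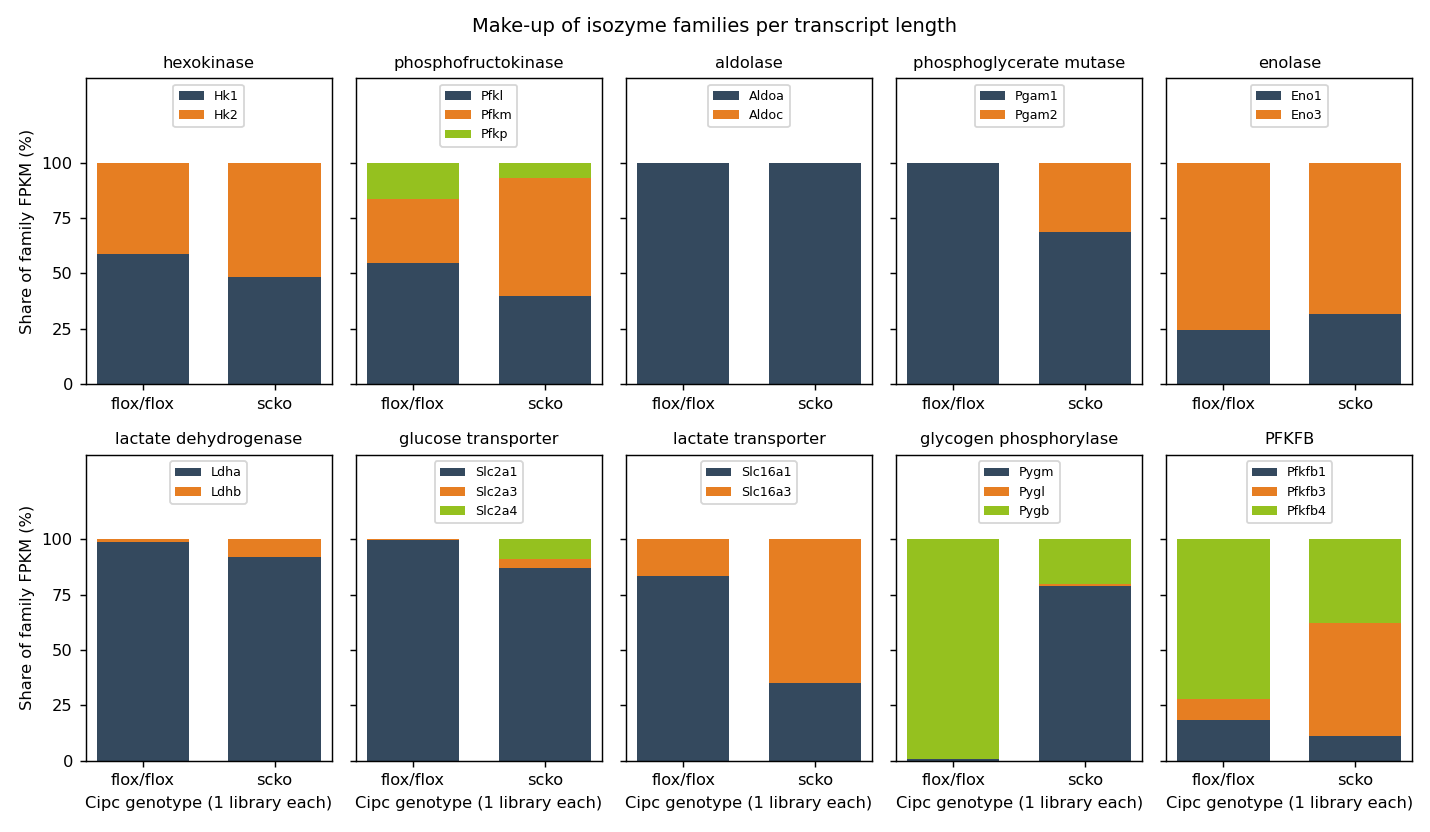
Share of each isozyme in the summed FPKM of its family, in percent, for the flox/flox and scko libraries (1 each, no error bars). The green Pygb bar fills nearly the whole of the phosphorylase family in flox/flox and gives way to dark Pygm in scko, and Pfkm, Pgam2, Slc16a3 and Pfkfb3 take larger shares in scko.

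Other genes around these pathways were read from 9 lists, with called genes given as higher and lower in scko. By the same rule 21.2% of all genes were higher and 15.9% lower. Among other glycogen genes, 18 passed the filter, of which 8 (44.4%) were higher and 1 (5.56%) lower (median log2 0.51). The targeting subunits Ppp1r3b and Ppp1r3d, which bring protein phosphatase 1 to glycogen, had 463 and 82 counts in scko beside 39 and 0 in flox/flox. Pgm5 had 583 and 3 counts, and is known as a cytoskeletal relative of phosphoglucomutase without its activity. Of 11 other carriers 7 (63.6%) were higher and 2 (18.2%) lower (median 1.52). The insulin-responsive GLUT12 gene Slc2a12 had 171 and 5 counts, Slc2a10 126 and 12, and the lysosomal Slc2a6 594 and 105, while the inositol carrier Slc5a3 had 69 and 738. The carriers as a list had the highest median of the 9, and that of all genes was 0.01.

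Of 13 other glycolytic isozymes and side enzymes 1 (7.69%) was higher and 5 (38.5%) lower (median -0.27). The neuronal enolase Eno2 had 26 counts in scko and 462 in flox/flox (log2 -4.05), the mitochondrial glycerol phosphate dehydrogenase Gpd2 616 and 3614 (log2 -2.48), and the galactose mutarotase Galm 100 and 556 (log2 -2.39). In the pentose phosphate pathway, which makes NADPH and ribose, 1 of 8 (12.5%) was higher and 2 (25%) lower (median -0.17). Its entry enzyme G6pdx, on the X chromosome, had 1376 and 6550 counts (log2 -2.17) and Pgd 4539 and 9975 (log2 -1.06), whereas H6pd, whose product oxidises glucose 6-phosphate inside the endoplasmic reticulum, had 5438 and 1083 (log2 2.40). The other 5 genes of the list were not called, among them the cytosolic Pgls (log2 0.95).

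At the pyruvate branch 4 of 17 genes (23.5%) were higher and 3 (17.6%) lower (median 0.19), shares near those of all genes. Pyruvate dehydrogenase kinases, which switch off entry into the citric acid cycle, were divided, with 944 counts in scko and 162 in flox/flox for Pdk2 and 103 and 295 for Pdk4. The pyruvate carrier subunit Mpc1 (307 and 118 counts) and pyruvate carboxylase Pcx (1136 and 595) were higher, and malic enzyme Me2 (437 and 2240) lower. The phosphatases were divided too, Pdp2 (135 and 307) being lower and Pdp1 (512 and 266, log2 1.02) higher. Of 2 gluconeogenic genes past the filter the mitochondrial Pck2 was higher, with 7817 and 2320 counts. Among 10 genes of the hexosamine, polyol and sugar nucleotide routes 1 (10%) was higher and 2 (20%) lower (median 0.01), the galactose enzyme Galt with 166 and 61 counts being higher and the sorbitol dehydrogenase Sord, with 292 and 1721, lower.

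Among 19 regulators of glucose genes 4 (21.1%) were higher and 2 (10.5%) lower (median 0.38), no more than among all genes. Arrdc4, an inhibitor of glucose uptake, had 174 counts in scko and 15 in flox/flox. The catalytic subunits of AMP-activated kinase lay on opposite sides, Prkaa2, the form known from muscle, with 107 and 13 counts and Prkaa1 with 944 and 2923. By FPKM Prkaa1 was the larger in both libraries, 12.6 and 37.1 scaled FPKM beside 0.836 and 0.0964. Of 17 targets of hypoxia-inducible factor outside glycolysis 4 (23.5%) were higher, a share near that of all genes, and 1 (5.88%) lower (median 0.56). The carbonic anhydrase Car9 with 294 and 7 counts, the prolyl hydroxylase Egln3 with 2935 and 712, and the growth factor Vegfa with 3935 and 1192 were higher. Ndrg1, with 1054 and 5286, was lower. The lists overlap: Egln3, called higher in both, and Egln1 were also among the regulators, and Pdk1 was also in the pyruvate branch.

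**Figure D5:**
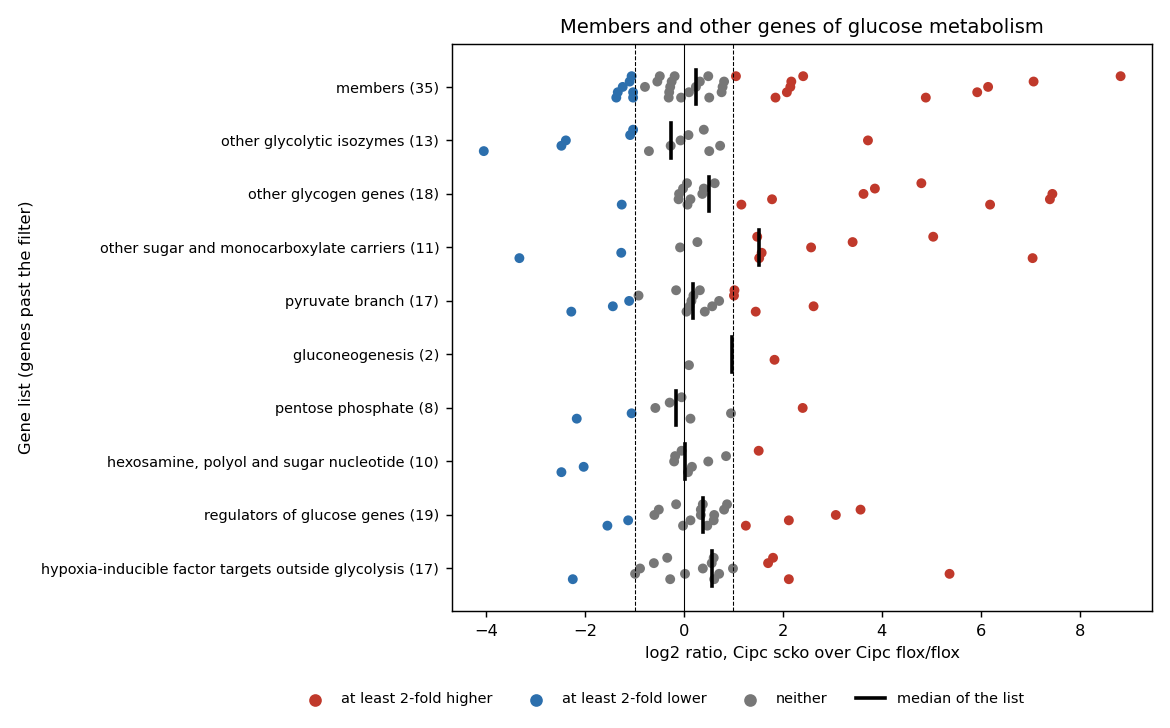
Log2 ratio of each gene past the filter in the 36-gene set and in 9 further lists, with red for at least 2-fold higher, blue for at least 2-fold lower, grey for neither, a black bar at the median of the list and dashed lines at a 2-fold difference. Calls lie on both sides in every list but gluconeogenesis, and the carriers have the median furthest to the right, at 1.52.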

How the data were processed

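Total RNA of satellite cells was sequenced as 1 Cipc flox/flox and 1 Cipc scko library (VAHTS Universal V6 kit, Illumina, per the labels' protocols). Tools named without roles in the submitters' processing notes are StringTie 1.3.0, HISAT2 2.0.4 and CASAVA, with the build GRCm38. The sources used here do not give the counting tool, its annotation, its strand setting or its treatment of reads that match several genes. The authors deposited a table of whole-number counts per gene and, for each library, FPKM, per the file headers. The FPKM follow those counts: over 13719 genes their ratio between libraries was 0.9996 to 1.0001 times that of the counts (1st to 99th percentile). That check does not show which gene lengths were used, and they need not be transcript lengths. Gapdh, with 4133 exon bases in all, had 640.0 CPM but 74.2 scaled FPKM in scko. The length behind its FPKM was thus longer than its annotated exons.

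Symbols and positions came from GENCODE vM21 (GRCm38), which named 16122 of 16190 genes. Counts were scaled to CPM with TMM factors (edgeR 4.0.16 in R 4.3.3). Log2 ratios used a prior count of 0.5, and 95% intervals are exact binomial (Clopper-Pearson) intervals of the split of counts. PCR reads lack molecular identifiers and are not independent molecules, so intervals and floors cover counting error only. A gene was called at 2-fold or more with an interval excluding equality. No p-value was computed, since 1 library a group leaves no replicate error. Genes at 0 were bounded against 3 counts in that library. Levels between genes used deposited FPKM brought to the same scaling. Intervals of family sums are normal approximations from the counts. Copies were found with BLAST+ 2.17.0, and windows of 100 bases were compared exactly with all annotated transcripts. The script was tested on simulated data. Promoters came from RefSeq (GRCm38.p6).

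The 36 genes and all lists were chosen with earlier results of these data known. All 36 are named. From each further list up to 3 called genes a direction were named, taken in order of the interval limit closest to no difference, with a CPM of at least 5. Pdp1 was named in addition, beside Pdp2. Some genes that this rule picks are not reported here. Alternatives were other scalings (including DESeq2 1.42.0 size factors), filters, prior counts, FPKM as the measure, treatment of copies, fold limits and gene lengths. Centring on chromosome medians and leaving out X-linked genes were chosen after seeing the data. Chromosome medians used genes past the filter with a mean CPM of at least 5 and no near-identical copy. They were set against the median of the autosomal genes among these.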

Additional observations from a re-analysis of the deposited data

How the results depend on the processing

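With 1 library a group, no replicate could be left out. No paired analysis was possible because each group had 1 library. The median log2 ratio of the 36 genes was 0.10 under scaling by total counts, FPKM with a pseudocount of 0.1 or 1, and copies summed. Scaling by totals also moved the median of all genes from 0.01 to -0.13. FPKM with a pseudocount of 1 called 7 of the 36 genes and 1479 of all genes higher, since it shrinks low values, and Pfkm, Slc2a3, Pfkfb3 and Pygl were not among them. It also left Pfkfb4 and Pfkfb1 uncalled. A fold limit of 1.5 called 3318 of all genes lower. A limit of 4 called 0 of the 36 genes lower, and 1608 of all genes higher and 860 lower. Pfkm was not called under totals or either FPKM setting, Slc2a1 under upper quartile scaling, and Pfkfb1 under upper quartile scaling, FPKM with a pseudocount of 1, a prior count of 5, or centring on its chromosome. A filter of 5 CPM removed Aldoc, Pfkfb1 and Pygl. Of 424 values of single genes under alternatives, 311 stayed within the counting interval, 113 moved, and 0 of the called genes changed sign. Signs changed among the uncalled Aldoc, Eno1, Pfkl and Ugp2. Isozyme shares moved by up to 20.2 percentage points with other gene lengths, for Hk1 in Cipc scko. At 12 counts for Pygm and 4 for Slc2a4 in Cipc flox/flox, depth limits the size of those ratios.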
